A study of Mus musculus with 7 samples.

Results

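Stromal fibroblast identity genes are the genes by which fibroblasts and interstitial cells of a connective tissue are recognised, and 10 of them were followed here in ovarian tissue without the progesterone receptor (PGR). They were chosen by name: *Pdgfra*, *Pdgfrb*, *Tcf21*, *Dcn*, *Lum*, *Dpt*, *Scara5*, *Vgll3*, *Mfap5* and *Pi16*. All 10 were found once each among the 52230 genes with values, and all 10 were among the 19233 genes that passed the filter on low counts. The samples were 7 mRNA-seq libraries of the ovary after granulosa cells had been released from it, from the PRKO line, in which *Pgr* is disrupted in every tissue (allele Pgrtm1Bwo). The WT group (PGR +/+) had 4 libraries, replicates 1 to 4, and the KO group (PGR -/-) had 3, replicates 2 to 4, each pooled from the tissue of 3 mice. Mice of both genotypes were 21 to 27 days old by the sample labels. They were given 5 IU eCG and, 44 h later, 5 IU hCG, and were killed 8 h post-hCG, so that both groups were in the hours before ovulation. The deletion was not restricted to stroma, and the tissue was a mixture of cell types.

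Fibroblasts build and maintain the matrix between follicles. They receive platelet-derived growth factors through the receptors PDGFRα and PDGFRβ, the latter also carried by pericytes, and mesenchymal transcription factors such as TCF21 take part in their specification. They secrete small leucine-rich proteoglycans such as decorin and lumican, which bind collagen fibrils, and glycoproteins of microfibrils. In the ovary this tissue surrounds the follicles, gives rise to part of the theca and is remodelled when the follicle wall opens.

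Between 47372446 and 63416875 reads per library were assigned to transcripts. Levels are given as CPM (read counts scaled to the library total with TMM factors), and errors are SD over the 4 WT or the 3 KO libraries. *Pgr* itself averaged 22.2 ± 6.16 CPM in WT libraries against 6.74 ± 0.736 CPM in KO libraries, and the groups did not overlap. In bulk tissue, fewer cells of a type and less RNA per cell cannot be told apart.

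The genes spanned a wide range of levels. On the TPM scale (transcript abundance scaled to a fixed library sum, a level per transcript length that allows genes to be compared), *Dcn*, which encodes decorin, had the highest mean at 416 ± 74.1 TPM (SD, n = 7), the 98.3rd percentile of the tested genes. *Lum* (lumican) followed at 133 ± 26.7 TPM and *Tcf21* at 112 ± 15.9 TPM. *Mfap5*, a microfibril glycoprotein gene, stood at 78.6 ± 17.7 TPM, *Pdgfra* at 76.1 ± 7.29 TPM and *Pdgfrb* at 57.5 ± 3.75 TPM. The lower genes were *Vgll3* at 24.5 ± 4.06 TPM, *Dpt* (dermatopontin, a matrix protein) at 23.9 ± 4.40 TPM and *Scara5* at 12.4 ± 4.02 TPM. *Pi16*, a peptidase inhibitor gene used to mark fibroblasts of vessel adventitia, was lowest at 2.95 ± 0.442 TPM, the 35.3rd percentile. The order of 3 neighbouring pairs was not the same in every library: *Lum* was above *Tcf21* in 5 of 7, *Mfap5* above *Pdgfra* in 3 of 7 and *Vgll3* above *Dpt* in 4 of 7. All other neighbours kept their order in 7 of 7 libraries.

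Other fibroblast genes were abundant too, with *Col3a1*, a fibrillar collagen gene, at a mean of 1444 TPM in addition to the 10. The tissue also held other cells. *Cyp11a1*, the enzyme that starts steroid synthesis, used here as a theca marker, was at 4469 TPM and the granulosa marker *Inha* at 2165 TPM. The 5 adipocyte markers summed to 29.3 to 37.7 TPM over the 7 libraries, made up mostly of *Plin1* at 24.3 TPM and *Fabp4* at 9.43 TPM, while *Adipoq* was at 0.134 TPM. The 3 oviduct markers summed to 1.95 to 3.39 TPM, with *Ovgp1* at 2.34 TPM.

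The comparison of KO with WT asks whether the fibroblast programme of the stroma differs when PGR is absent. None of the 10 genes was called in edgeR's quasi-likelihood test, where 0.0104% of the 19233 genes tested were called (2 genes). A call needed an adjusted p no higher than 0.05 together with a log2 fold change (log2FC) no smaller than 0.5 in size. *Pgr*, the deleted gene, was not called either (log2FC −1.72, edgeR adjusted p = 0.0544). A gene without a call is therefore not shown to be unchanged. With DESeq2, the test the study used for this tissue, and the same thresholds 1 of the 10, *Scara5*, was called, where 0.816% of 17517 genes were. By DESeq2 adjusted p alone, 3 of the 10 (*Tcf21*, *Scara5* and *Vgll3*) were at or under 0.05, beside 241 of the 17517 genes. DESeq2 gave *Pgr* an adjusted p of 3.8e-15. At an unadjusted edgeR p under 0.05 there were 3 of 10 genes, *Tcf21*, *Scara5* and *Vgll3*, against 8.94% of all genes tested. All 3 were lower in KO, a direction that 5.1% of all genes tested took at this p. For the same 3 genes the libraries of the groups did not overlap, against 9.05% of all genes tested. Of the 10 genes, 7 had a log2FC below 0, against 50.3% of all genes tested. The median log2FC of the 10 was −0.13 beside −0.001 over all genes tested. It was −0.06 without WT replicate 1, the library in which most of these genes were highest, and −0.05 on the log2(TPM + 0.1) scale.

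**Figure D1:**
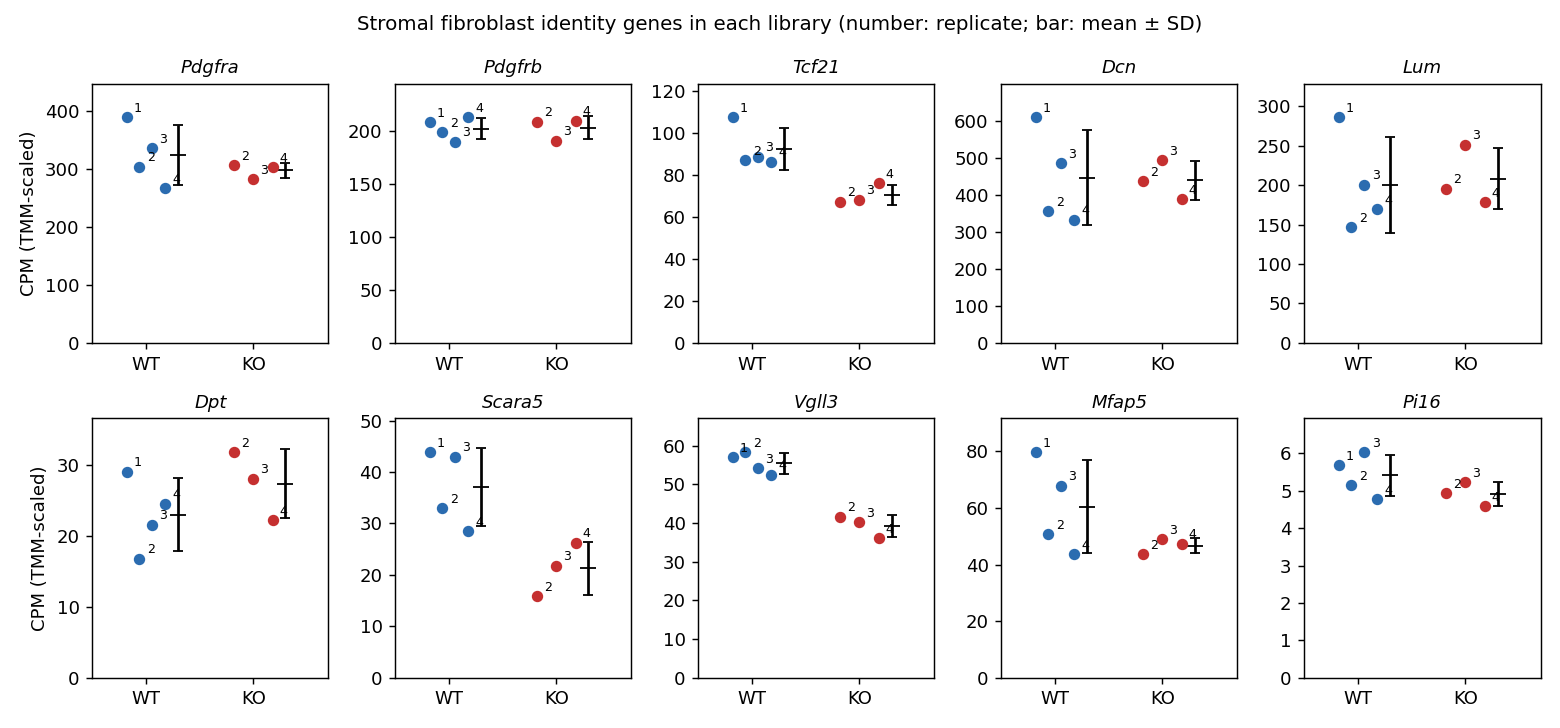
Level of each gene in CPM (TMM-scaled, linear axis from 0) in the 4 WT and 3 KO libraries, numbered by replicate, with the mean ± SD of each group beside the points. The KO points of *Tcf21*, *Scara5* and *Vgll3* all lie below the WT points, while the other 7 genes overlap between the groups.

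*Tcf21*, *Vgll3* and *Scara5* were the genes whose groups did not overlap, and the 250 bases before the start of the leading protein-coding transcript of each are shown because these were the genes with every KO library lower. The sequences were read from GRCm39 in the direction of transcription, for *Tcf21* from the minus strand of chr10:22696074-22696323, for *Vgll3* from the plus strand of chr16:65611673-65611922 and for *Scara5* from the plus strand of chr14:65903594-65903843. Capitals mark matches, on either strand, to 3 short motifs. The E-box CANNTG is recognised by basic helix-loop-helix factors such as TCF21. The TEAD motif GGAATG, which reads CATTCC from the opposite strand, is bound by the partners of VGLL3. The half-site AGAACA, which reads TGTTCT from the opposite strand, is one that PGR shares with other steroid receptors.
Tcf21 promoter: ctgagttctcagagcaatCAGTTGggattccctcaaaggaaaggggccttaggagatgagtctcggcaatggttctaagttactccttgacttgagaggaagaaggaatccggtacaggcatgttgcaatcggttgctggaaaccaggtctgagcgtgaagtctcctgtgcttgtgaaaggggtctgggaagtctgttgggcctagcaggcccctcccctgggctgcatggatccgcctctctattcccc
Vgll3 promoter: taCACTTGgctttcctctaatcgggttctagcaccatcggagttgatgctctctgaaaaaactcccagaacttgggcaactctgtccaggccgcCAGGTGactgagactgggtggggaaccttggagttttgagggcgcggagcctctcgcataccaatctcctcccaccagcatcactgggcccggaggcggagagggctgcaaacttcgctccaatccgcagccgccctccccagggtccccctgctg
Scara5 promoter: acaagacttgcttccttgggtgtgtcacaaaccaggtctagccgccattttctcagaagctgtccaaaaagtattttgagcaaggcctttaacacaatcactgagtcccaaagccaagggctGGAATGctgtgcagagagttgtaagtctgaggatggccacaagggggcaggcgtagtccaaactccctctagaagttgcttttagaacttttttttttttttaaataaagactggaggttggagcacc
*Tcf21* had 1 E-box, 232 bases before its start, and *Vgll3* had 2, at 248 and 156 bases. *Scara5* had 1 TEAD motif, 128 bases before its start. The half-site was in none of these 3 windows. In the same windows of 19232 tested genes, an E-box was found in 63.3%, the TEAD motif in 11.8% and the half-site in 13.5%. Over all 10 genes, 7 windows held an E-box, 2 a TEAD motif (*Dcn* and *Scara5*) and 1 the half-site (*Lum*). A match of letters is a description of the window and not a binding site.

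*Vgll3*, a transcription cofactor that works through TEAD factors, lies on chromosome 16 from 65611923 to 65663369. Its levels were 57.0, 58.3, 54.1 and 52.5 CPM in the WT libraries, in order of replicate, and 41.7, 40.2 and 36.1 CPM in the KO libraries. The highest KO library was below the lowest WT library, and the replicates of each group were close together. The means were 55.5 ± 2.66 CPM in WT and 39.3 ± 2.90 CPM in KO (SD, n = 4 and 3), a log2FC of −0.50 (SE 0.07, 95% interval −0.65 to −0.34). In edgeR the unadjusted p was 4.6e-05 and the adjusted p 0.0796. DESeq2 gave an adjusted p of 6.4e-07, with a log2FC of −0.496 that lies just short of the 0.5 needed for a call. Over all alternatives its log2FC stayed between −0.54 and −0.43.

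Of 14 genes of the *VGLL*, *TEAD* and *YAP* group, 12 passed the filter, and none was called. At an unadjusted edgeR p under 0.05, 2 were higher and 3 lower, beside 8.94% of all genes tested in both directions together. The median log2FC was −0.09. *Tead2*, one of the TEAD factors, was at 68.2 ± 2.86 CPM in WT and 80.5 ± 5.84 CPM in KO (log2FC 0.24, edgeR adjusted p = 0.318), with no overlap between groups. *Yap1*, the coactivator that shares TEAD factors with VGLL3, was at 130 ± 2.59 CPM in WT and 113 ± 6.72 CPM in KO (log2FC −0.20, edgeR adjusted p = 0.341), again with no overlap. Their target *Ccn1*, the most abundant of the group at 201 TPM, had a log2FC of 0.02 (SE 0.16). *Vgll1* and *Vgll2* did not pass the filter, so *Vgll3* and *Vgll4* (log2FC 0.26, edgeR adjusted p = 0.468) were the family members tested.

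*Tcf21*, a basic helix-loop-helix factor of mesenchyme that acts in gonad development, lies on chromosome 10 from 22692803 to 22696073. Its levels were 107, 87.0, 88.8 and 86.3 CPM in the WT libraries and 67.3, 68.2 and 76.1 CPM in the KO libraries. All KO values were lower, and WT replicate 1 stood above the other WT replicates. The log2FC was −0.39 (SE 0.09, 95% interval −0.59 to −0.19), with an adjusted p of 0.251 in edgeR (0.00188 unadjusted). The adjusted p was 0.0185 in DESeq2, with a log2FC of −0.387 that is under the size needed for a call. Without WT replicate 1 the log2FC was −0.30 (edgeR adjusted p = 0.192). Another gene, *Gm10824*, overlaps *Tcf21* on the opposite strand, and the library kit was a stranded one.

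Of 12 mesenchymal basic helix-loop-helix genes, which include the partners that TCF21 dimerises with, 10 passed the filter and 1 was called. This was *Tcf23*, a relative of TCF21 needed for decidualisation of uterine stroma, at 23.2 ± 0.721 CPM in WT and 8.54 ± 0.767 CPM in KO (log2FC −1.44, edgeR adjusted p = 4e-04). The most abundant, the dimer partner *Tcf3*, was at 68.6 TPM with a log2FC of 0.10 (SE 0.06). *Scx*, a tendon factor, was at 14.4 ± 6.25 CPM in WT and 6.20 ± 0.891 CPM in KO (log2FC −1.21, edgeR adjusted p = 0.294). *Hand1* was listed at 0 in all 7 libraries. In the group of 12 ovarian stroma transcription factors, all tested and none called, *Osr1* had a log2FC of −0.39 (edgeR adjusted p = 0.468), and the most abundant, *Gata4*, had a log2FC of 0.14 (SE 0.09).

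*Scara5*, a class A scavenger receptor that takes up ferritin, lies on chromosome 14 from 65903844 to 66002275. It had the largest log2FC in size of the 10 genes, with 43.9, 33.0, 43.0 and 28.5 CPM in the WT libraries and 15.9, 21.8 and 26.2 CPM in the KO libraries. The groups did not overlap, although KO replicate 4 and WT replicate 4 were near each other. The means were 37.1 ± 7.56 and 21.3 ± 5.19 CPM, a ratio of 0.574, with a log2FC of −0.80 (SE 0.20, 95% interval −1.25 to −0.35). In edgeR the unadjusted p was 0.00288 and the adjusted p 0.286, and DESeq2 gave an adjusted p of 0.0054. With single libraries left out the edgeR log2FC ranged from −0.98 to −0.63.

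*Scara5* is also on the study's list of genes that differed in granulosa cells when PGR was lost. Some granulosa cells stay in the tissue. The summed level of 8 granulosa markers was 2024 to 2814 TPM in WT and 2481 to 3260 TPM in KO, overlapping between groups, and none of the 8 had an unadjusted p under 0.05. Most of this sum was *Inha*, at a mean of 2165 TPM. The part of granulosa cells in the *Scara5* values was not tested. None of 8 other class A scavenger receptor, ferritin and iron transport genes was called or had an unadjusted p under 0.05. The lowest p values were those of the receptors *Scara3* (log2FC 0.13, edgeR adjusted p = 0.668) and *Tfrc*, the transferrin receptor (log2FC −0.12, edgeR adjusted p = 0.850), and *Ftl1*, the ferritin light chain, was the most abundant at 2724 TPM (log2FC −0.001, SE 0.09).

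**Figure D2:**
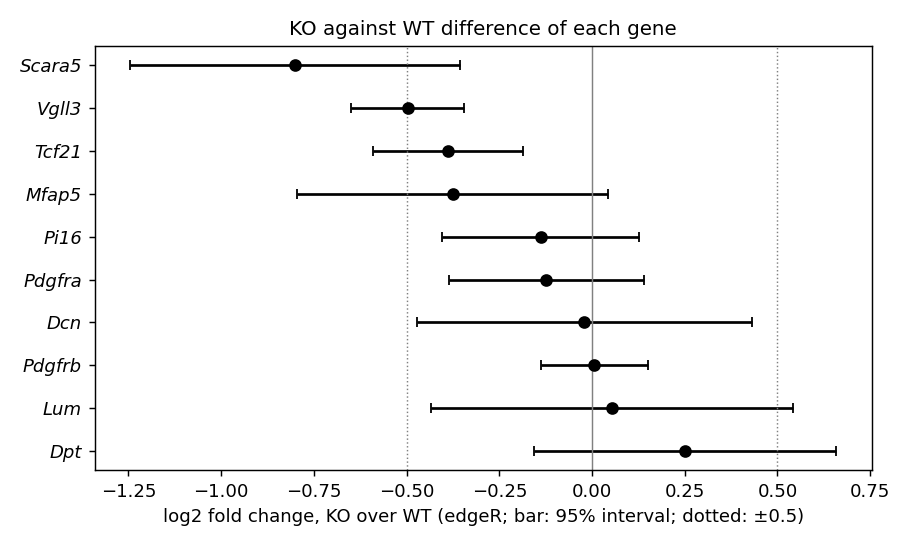
Log2 fold change of each gene, KO over WT, with the edgeR 95% interval and dotted lines at ±0.5. The intervals of *Scara5*, *Vgll3* and *Tcf21* lie below 0, and those of the other 7 genes include 0.

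The 2 PDGF receptors were at nearly the same level in both genotypes. *Pdgfra*, on chromosome 5 from 75311994 to 75358876, was at 390, 304, 337 and 268 CPM in WT and at 307, 283 and 304 CPM in KO, with all KO values inside the WT range. Its log2FC was −0.12 (SE 0.12, 95% interval −0.39 to 0.14, edgeR adjusted p = 0.806). *Pdgfrb*, on chromosome 18 from 61178212 to 61218133, was at 208, 199, 190 and 213 CPM in WT and at 209, 191 and 210 CPM in KO. Its log2FC of 0.006 (SE 0.06, edgeR adjusted p = 0.989) had the narrowest interval of the 10 genes, −0.14 to 0.15, which leaves out a difference of 0.5 in either direction. The ratio of *Pdgfra* to *Pdgfrb* in TPM was 1.38 ± 0.232 in WT, from 1.08 to 1.60, and 1.26 ± 0.0146 in KO, so WT replicates spanned more than the KO replicates.

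Of the 4 PDGF ligand genes, all tested, none was called. *Pdgfb*, the ligand that endothelium supplies to pericytes, was the most abundant at 20.9 TPM and had the lowest p, with 39.1 ± 3.67 CPM in WT and 34.7 ± 0.373 CPM in KO (log2FC −0.17, edgeR adjusted p = 0.543) and no overlap between groups. *Pdgfc* had a log2FC of −0.13 (edgeR adjusted p = 0.784).

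Matrix genes varied mostly between replicates. *Dcn* lies on chromosome 10 from 97315275 to 97358155 and *Lum* from 97400990 to 97408577, on the same strand, 42834 bases apart with no annotated gene between them. *Dcn* was at 609, 355, 486 and 333 CPM in WT and at 436, 493 and 388 CPM in KO (log2FC −0.02, SE 0.20, 95% interval −0.47 to 0.43, edgeR adjusted p = 0.987). *Lum* was at 286, 146, 201 and 169 CPM in WT and at 195, 251 and 178 CPM in KO (log2FC 0.05, SE 0.22, 95% interval −0.43 to 0.54, edgeR adjusted p = 0.965). For both genes WT replicate 1 was the highest library and all KO libraries lay inside the WT range. The direction of neither log2FC held when single libraries were left out. The ratio of *Dcn* to *Lum* in TPM moved little, 3.21 ± 0.331 in WT and 3.06 ± 0.208 in KO. *Kera* and *Epyc*, which follow *Lum* on the chromosome, did not pass the filter.

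Of 14 other small leucine-rich proteoglycan genes, 12 passed the filter, none was called and none had an unadjusted p under 0.05, while 10 had a log2FC below 0 and the median was −0.21. *Prelp* was at 35.3 ± 6.84 CPM in WT and 27.6 ± 5.52 CPM in KO (log2FC −0.35, edgeR adjusted p = 0.584), and *Fmod*, which encodes fibromodulin, at 55.7 ± 21.4 and 40.0 ± 7.52 CPM (log2FC −0.48, edgeR adjusted p = 0.657). *Bgn* (biglycan), the most abundant at 662 TPM, had a log2FC of −0.08 (SE 0.12).

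*Dpt*, on chromosome 1 from 164624187 to 164654544, had the highest log2FC of the 10 genes, 0.25 (SE 0.18, 95% interval −0.16 to 0.66, edgeR adjusted p = 0.734). It was at 29.0, 16.8, 21.6 and 24.5 CPM in WT and at 31.8, 28.1 and 22.2 CPM in KO, and the groups overlapped. *Mfap5*, on chromosome 6 from 122470878 to 122508875, was at 79.7, 50.8, 67.9 and 43.6 CPM in WT and at 43.7, 48.9 and 47.3 CPM in KO. WT replicates 1, 2 and 3 were above all KO libraries and WT replicate 4 was just below them. The log2FC was −0.38 (SE 0.18, 95% interval −0.79 to 0.04, edgeR adjusted p = 0.589), and it was −0.21 without WT replicate 1 and −0.19 with the replicate number as a block. *Rimklb* overlaps *Mfap5* on the opposite strand.

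All 14 other microfibril and elastic fibre genes were tested and none was called. In this group 12 had a log2FC below 0, beside 50.3% of all genes tested, and the median was −0.18. At an unadjusted edgeR p under 0.05, 2 of them were lower in KO, beside 5.1% of all genes tested. *Eln* (elastin) was at 218 ± 17.9 CPM in WT and 186 ± 15.3 CPM in KO (log2FC −0.23, edgeR adjusted p = 0.468), with no overlap, and *Efemp1*, a fibulin gene, at 19.0 ± 4.51 and 13.3 ± 3.79 CPM (log2FC −0.52, edgeR adjusted p = 0.534), with overlap. The most abundant by TPM was *Mfap4* at 233 TPM (log2FC −0.18, SE 0.17).

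*Pi16*, on chromosome 17 from 29536654 to 29549567, was at 5.69, 5.15, 6.03 and 4.77 CPM in WT and at 4.93, 5.23 and 4.59 CPM in KO. The ranges overlapped and the log2FC was −0.14 (SE 0.12, 95% interval −0.40 to 0.13, edgeR adjusted p = 0.780). It rested on 251 to 340 estimated reads per library. *Dpp4*, which marks the same adventitial cells in other tissues, was lower still at 0.325 TPM. It had the lowest mean TPM of the 12 other adventitial genes, among which *Igfbp6* was at 179 TPM and *Penk* at 134 TPM.

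Of 12 other adventitial fibroblast genes, all tested and none called, 3 were higher and 1 lower at an unadjusted edgeR p under 0.05. Of all genes tested, 8.94% passed this p in both directions together. The median log2FC of the group was −0.06. *Cd34*, a surface glycoprotein of these fibroblasts and of endothelium, was the most abundant at 202 TPM, and was at 349 ± 32.1 CPM in WT and 267 ± 22.3 CPM in KO (log2FC −0.39, edgeR adjusted p = 0.252), with no overlap. *Col15a1*, a collagen gene of basement membrane zones, was at 274 ± 20.8 CPM in WT and 324 ± 18.5 CPM in KO (log2FC 0.24, edgeR adjusted p = 0.386), also with no overlap and in the other direction.

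The 20 other fibroblast genes, all tested, held no call in edgeR and 1 in DESeq2, *Sfrp2*, a secreted Wnt modulator. *Sfrp2* was at 14.6 ± 1.57 CPM in WT and 45.9 ± 14.9 CPM in KO, with every KO library above every WT library (log2FC 1.65, SE 0.20, edgeR adjusted p = 0.0544). *Thy1*, a surface glycoprotein of fibroblasts, was at 101 ± 6.98 CPM in WT and 133 ± 16.0 CPM in KO (log2FC 0.39, edgeR adjusted p = 0.251), again with all KO libraries above. *Col3a1* had a log2FC of −0.04 (SE 0.12), and the median of the group was −0.05. Of the 20 genes, 3 were higher and none lower at an unadjusted edgeR p under 0.05, beside 8.94% of all genes tested in both directions together.

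**Figure D3:**
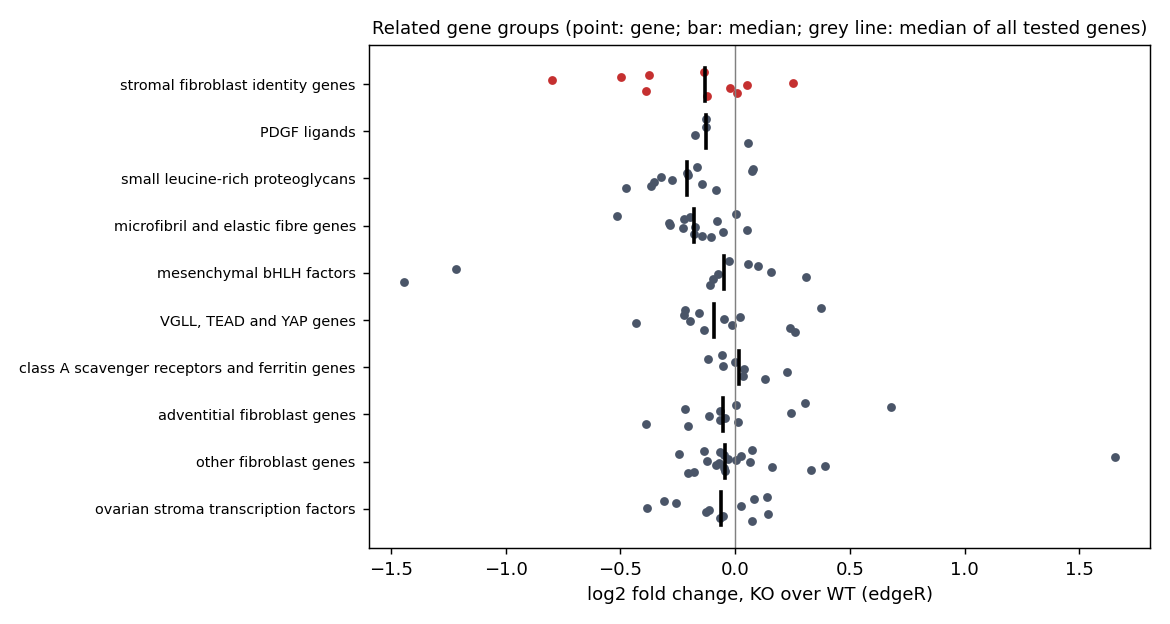
Log2 fold change, KO over WT, of each tested gene (points) in the 10 stromal fibroblast identity genes and 9 related groups, with the median of each group as a bar. The medians lie between −0.21 and 0.02, and *Sfrp2* at 1.65 and *Tcf23* at −1.44 stand farthest out.

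Markers of some other cells differed between the groups of libraries as well. The summed level of 10 smooth muscle and pericyte markers was 1593 to 1875 TPM in WT and 1177 to 1546 TPM in KO, without overlap. *Acta2* (733 TPM) and *Tagln* (547 TPM) made up most of this sum. At an unadjusted edgeR p under 0.05, 5 of the 10 were lower in KO, a direction that 5.1% of all genes tested took at this p. These were *Acta2*, *Cnn1*, *Tagln*, *Des* and *Cspg4*. *Rgs5*, *Notch3*, *Kcnj8* and *Abcc9* had log2FC values of −0.05, −0.07, −0.09 and 0.12. DESeq2 called 2 of the 10, both lower in KO, *Des* (edgeR log2FC −0.78, DESeq2 adjusted p = 0.00024) and *Cnn1* (edgeR log2FC −0.70, DESeq2 adjusted p = 0.0017). The 7 endothelial markers summed to 337 to 364 TPM in WT and 325 to 351 TPM in KO, with 3 of 7 lower at that p. The 6 theca markers summed to 7850 to 10958 TPM and 7185 to 8915 TPM, with 1 of 6 lower at that p. All 6 had a log2FC below 0 (median −0.43). *Cyp11a1* (4469 TPM) and *Hsd3b1* (2506 TPM) made up most of the theca sum. Among WT libraries *Cyp17a1* and *Insl3* were lowest in replicate 4 (467 and 20.5 CPM), where the sum was highest. The 7 surface epithelium markers summed to 34.3 to 62.6 and 35.1 to 50.9 TPM, with 1 of 7 lower. Leukocyte markers summed to 115 to 136 and 104 to 140 TPM, with 0 of 7 at that p in edgeR. In the other direction, all 5 oocyte markers (median log2FC 0.28) and all 5 red blood cell markers (median 0.20) had a log2FC above 0. Each of these genes overlapped between the groups. KO replicate 3 had the highest oocyte and red blood cell sums, 308 and 2186 TPM. For both sums KO replicates 2 and 4 lay inside the WT range (174 to 251 and 1148 to 1472 TPM). The part of all these other cell types in the values of *Tcf21*, *Scara5* and *Vgll3* was not tested.

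Over the libraries, most of the genes had a shared high point in WT replicate 1. This library held the highest value of 6 of the 10 genes and was above the median for 9, and WT replicate 3 was above the median for 8. WT replicate 4 and KO replicate 4 were above the median for 1 gene each. The mean log2 CPM of the 10 genes was 6.56, 6.12, 6.35 and 6.11 in the WT libraries and 6.08, 6.16 and 6.07 in the KO libraries, in order of replicate. Its spread was 0.21 in WT and 0.05 in KO (SD, n = 4 and 3), and 7 of the 10 genes had a larger coefficient of variation in WT, such as *Dcn* with 28.7% against 11.9% and *Mfap5* with 27.1% against 5.75%. The difference in spread was not tested. The same WT replicates 1 and 3 had granulosa marker sums of 2747 and 2814 TPM, above the 2141 and 2024 TPM of WT replicates 2 and 4. *Inha*, at a mean of 2165 TPM, made up most of these sums. *Fshr*, *Cyp19a1*, *Amh*, *Inha*, *Inhbb* and *Fst* were each higher in WT replicates 1 and 3 than in 2 and 4. Among WT libraries *Foxl2* and *Nr5a2* were highest in replicate 4 (94.1 and 284 CPM). KO replicate 4 had the highest granulosa sum of all, 3260 TPM, and the lowest mean log2 CPM of the 10 genes. Smooth muscle and pericyte sums were also higher in WT replicates 1 and 3 (1875 and 1864 TPM) than in 2 and 4 (1593 and 1742 TPM). The part of these cells in the pattern was not tested.

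**Figure D4:**
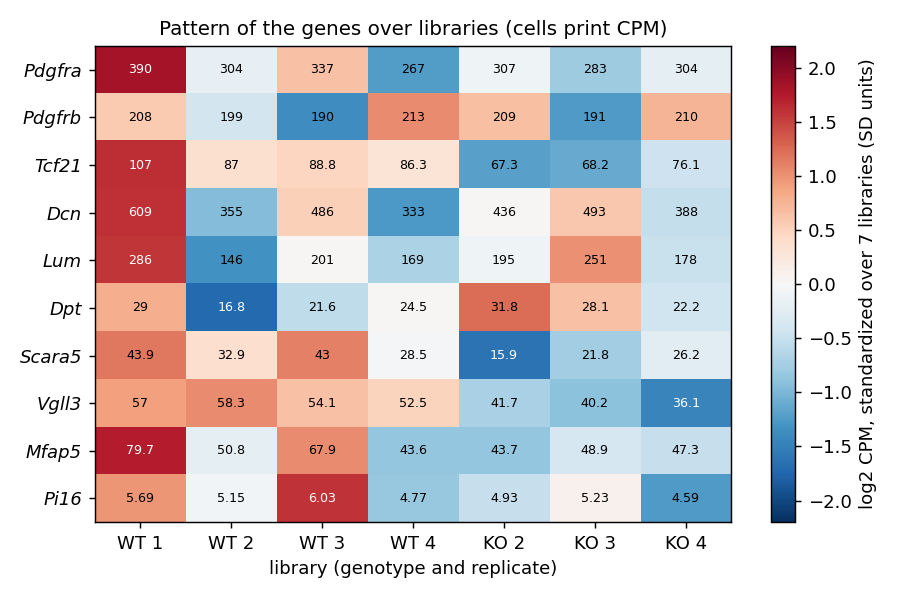
Standardized log2 CPM (colour, SD units over the 7 libraries) of each gene in each library, with the CPM printed in each cell. WT replicate 1 is the highest library for 6 genes, and *Tcf21*, *Scara5* and *Vgll3* are below their mean in all 3 KO libraries.

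The genes did not vary as 1 block. As a description over 7 libraries, which share depth and tissue composition, Pearson's r of log2 CPM was 0.93 for *Dcn* and *Lum*, 0.91 for *Tcf21* and *Scara5*, 0.91 for *Pdgfra* and *Mfap5*, and 0.81 for *Tcf21* and *Vgll3*. It was 0.28 for *Tcf21* and *Dcn* and −0.64 for *Pdgfrb* and *Pi16*, and *Pdgfrb* was the gene that followed the others least, with a highest r of 0.27, to *Dpt*. The 5 genes most like the mean pattern of the 10, among 11881 genes of at least 5 CPM, were *Slc35b2* (r = 0.986), which carries the sulfate donor into the Golgi, *Yipf5* (0.984), a Golgi membrane protein, *Cald1* (0.980), which binds actin, *Derl2* (0.980), of protein export from the endoplasmic reticulum, and the nucleoside transporter *Slc29a1* (0.977). *Slc35b2* was highest in WT replicate 1 at 98.3 CPM and next in WT replicate 3 at 89.5 CPM, with the other 5 libraries between 80.3 and 83.0 CPM. None of the 5 was called (edgeR adjusted p from 0.609 to 0.833).

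The transcripts that made up each gene were also compared. *Lum* and *Dpt* have 1 transcript each in the files, and a single transcript held most of the level of *Pdgfrb*, *Scara5*, *Tcf21* and *Pdgfra*, the lowest mean share being 89.3% of the TPM, for *Pdgfra*-201 in KO. *Dcn* was divided between *Dcn*-201, at 81.0% in WT and 78.1% in KO, and *Dcn*-202, at 18.9% and 21.8%, and KO replicate 2 had the largest share of *Dcn*-202 at 27.0%. *Mfap5*-207 held 56.9% in WT and 54.4% in KO. For *Vgll3*, *Vgll3*-203, which has no defined coding sequence in the annotation, held 49.0% of the TPM in WT and 51.9% in KO, and the coding transcripts *Vgll3*-201 and *Vgll3*-202 held 27.1% and 23.9% in WT and 26.2% and 21.9% in KO. The KO libraries lay on both sides of the WT libraries for all 3 transcripts, as for *Vgll3*-203 with 59.2%, 54.1% and 42.5% in KO against 46.3% to 52.0% in WT. *Pi16* was the least settled: *Pi16*-201 was listed at 0 in WT replicates 1 and 2 and in KO replicate 4, and at 27.6% to 30.0% of the TPM in the other 4 libraries. Such shares are estimates of how reads common to several transcripts divide, and no test was made of them.

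**Figure D5:**
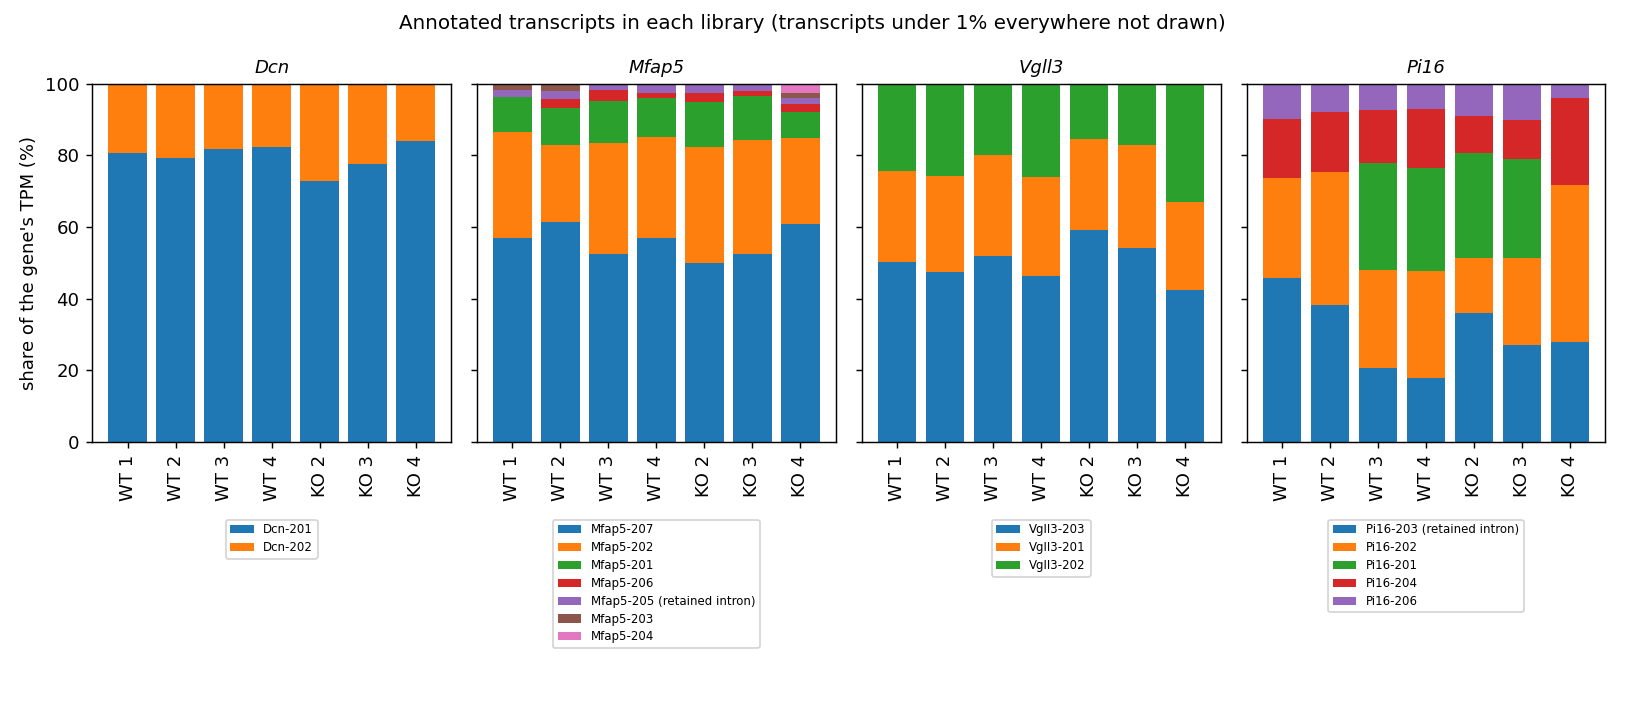
Share of each annotated transcript in the TPM of *Dcn*, *Mfap5*, *Vgll3* and *Pi16* in each library, as stacked bars from 0 to 100%. The KO shares of each *Vgll3* transcript lie on both sides of the WT shares, and *Pi16*-201 is absent from the bars of 3 libraries.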

How the data were processed

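RNA-seq of granulosa cell-depleted ovary was compared between 4 WT and 3 KO libraries, grouped by the sample titles. The authors quantified paired-end reads of stranded mRNA libraries with Salmon on the GENCODE M26 transcriptome (GRCm39) and deposited, for each transcript, the expected count (an estimated number of reads that need not be whole), TPM and effective length. Replicate numbers 2 to 4 occur in both genotypes, but nothing states that they mark a shared litter or day, and no batch is given in the labels.

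Transcript identifiers were matched to GENCODE M39 on the same assembly, with 137570 of 139225 (98.8%) matched. Expected counts and TPM were summed per gene, and counts rounded. Differential expression was tested with edgeR 4.0.16 (R 4.3.3; TMM, filterByExpr, quasi-likelihood F-test, two-sided), and p-values of the 19233 genes tested were adjusted by the Benjamini–Hochberg method. A call needed adjusted p ≤ 0.05 and a log2FC of 0.5 or more in size, thresholds taken from the study. The study applied them with DESeq2 and then removed genes by their level or their log2FC in granulosa cells relative to stroma, a step not repeated here. DESeq2 1.42.0 and limma 3.58.1 were used for alternatives. The fits were tested on simulated data. At 47372446 reads or more per library, each of the 10 genes had at least 251 estimated reads in every library, and p-values measure the spread between pools.

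The genes and the related lists were chosen with earlier results of these data known. Named were all 10 genes, *Pgr*, in each related list any called gene or else the 2 of lowest p, with the gene of highest TPM, and the 5 genes most like the mean pattern. Of these, 1 gene is not reported here. *Vgll1*, *Vgll2*, *Vgll4*, *Kera*, *Epyc*, *Hand1*, *Dpp4*, *Igfbp6*, *Penk*, *Scx*, *Slc35b2* by library, and the cell type markers printed alone were named after their values were seen. Motifs were counted on both strands of GRCm39.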

Additional observations from a re-analysis of the deposited data

Results flagged for a closer look

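*Tcf21* in WT replicate 1 was at 107.4 CPM, far above the other 3 WT libraries for their spread. Its gap to the nearest of them was 0.882 of the group's range, above Dixon's 95% critical value for 4 samples, which chance passes in about 1 of 20 groups tested. The WT libraries of each of the 10 genes were screened in this way, and this was the only value flagged. The KO libraries were below all 4 WT libraries, and without WT replicate 1 the log2FC was −0.30 in place of −0.39.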

How the results depend on the processing

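The number of the 10 genes called was 0 in edgeR under every setting tried and 0 to 0 with each library left out, and 1 with DESeq2. Among all genes, 2 were called, and 143 with DESeq2, 36 without a filter on low counts, 6 with at least 10 counts in every library, and 1 to 4 with each library left out. The replicate numbers were not shown to pair the libraries: the deviations of same-numbered libraries from their group means correlated at 0.023, 0.156 and 0.126. Those of different-numbered libraries correlated at −0.195 to 0.191. With the replicate block 26 of all genes and 0 of the 10 were called. The median log2FC of the 10 ranged from −0.06 to −0.19 with single libraries left out. Of 150 values of single genes over 15 alternatives, 135 kept their direction and their side of the threshold, 1 (*Scara5* in DESeq2) passed it and 14 changed sign, all of them of *Dcn*, *Pdgfrb* and *Lum*, which lay near 0. *Dcn* was at 0.016 with limma-voom, 0.058 on the TPM scale and 0.18 with the replicate block, and from −0.13 to 0.175 with single libraries left out. *Pdgfrb* was at −0.00040 with effective-length offsets and from −0.024 to 0.055 with single libraries left out, and *Lum* from −0.098 to 0.28. The cause was not tested. Counted in reads in place of TPM, the leading transcript of *Vgll3* was *Vgll3*-201, and that of *Pi16* was *Pi16*-202 (43.7% in WT and 39.6% in KO). *Mfap5*-207 still led and held 72.3% of the reads in WT and 70.7% in KO.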
